A study of Mus musculus with 14 samples.

Results

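The Rab, Arf and Arl genes encode small GTPases that direct membrane traffic, and 66 of the 14531 entries of the deposited expression table were protein-coding genes of these families, chosen by their names alone: 47 Rab genes, 5 Arf genes and 14 Arl genes. Mice were C57BL/6N males, 10 weeks of age, that ate either the control or the high-fat diet for 3 days, and each library was made from the hypothalamus, 8 of which were combined in a pool. From each lysate an input was kept, and an antibody against phosphorylated ribosomal protein S6, a mark of ribosomes in recently activated cells, was used to precipitate ribosomes with their RNA (IP). The 14 libraries form 4 groups. Control diet is represented by 3 libraries of each fraction, and high-fat diet by 4 of each. C57BL/6N is also the genotype given for all mice, so no transgene marks a cell type in either fraction, and every library is a pool of animals, so the spread between libraries is spread between pools. Values are FPKM, that is, fragments divided by transcript length and library size, and the sequencing depth is unknown. Libraries are named by group and by the column index of the table, from 0 to 3, and values are always listed in index order.

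Small GTPases of this kind act as switches. Guanine nucleotide exchange factors (GEFs) load them with GTP, which places them on one particular membrane where they recruit effectors such as coats, tethers and motors, and GTPase-activating proteins (GAPs) return them to the GDP state. In neurons they serve the delivery of synaptic vesicles and peptide granules, the recycling of receptors, the movement of lysosomes along axons and the supply of the primary cilium.

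Of the 66 genes, 64 had a mean of at least 1 FPKM over the 14 libraries and were tested. Rab3d (0 to 0.773 FPKM) and Rab7b (0 to 3.07 FPKM) lay under this filter. The most abundant were Arf3 (190.5 to 221 FPKM over the 7 input libraries), Rab7 (193 to 241), Rab6b (188 to 224), Rab3c (219.7 to 284), Rab2a (181 to 207) and Rab6a (140.1 to 172), which take part in Golgi traffic, vesicle release and lysosomal delivery. Within a group the libraries differed little in input and much more in IP: the median SD of a gene on the log2(FPKM + 1) scale was 0.13 (control diet) and 0.15 (high-fat diet) in input, against 0.55 and 0.47 in IP. The same median over all 12478 genes tested was 0.17 and 0.17 in input and 0.71 and 0.55 in IP. Exons of 22 of the 66 genes overlap those of another gene in the GENCODE annotation of the GRCm38 genome, and since the libraries carry no strand information, reads of such pairs cannot be told apart.

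The IP and input libraries differed in more than these genes. Of the summed FPKM, mitochondrially encoded genes held 23.5% to 39.1% in input but 2.66% to 15.6% in IP, and the 66 GTPase genes held 0.516% to 0.737% in input and 0.743% to 1.07% in IP. With mitochondrial genes left out, the GTPase share was 0.847% to 0.963% in input and 0.870% to 1.14% in IP. IP exceeded input for 13 of 15 tested pan-neuronal markers and fell below it for 0, their summed level being 7205 to 8329 FPKM in input and 11975 to 19900 FPKM in IP. Of 13 mature oligodendrocyte markers 10 were lower and 1 higher (1335 to 1701 FPKM in input, 559 to 1112 in IP), and of 10 astrocyte markers 8 were lower and 1 higher (844 to 943 FPKM in input, 298 to 615 in IP). Higher in IP were also 5 of 6 markers of choroid plexus (21.3 to 117 FPKM summed in input, 249 to 1414 in IP, with Folr1 at 0 in at least 1 input library of each diet), 5 of 8 of thalamus with 1 lower (593 to 702 in input, 1860 to 2890 in IP), and 4 of 5 of blood (11.6 to 27.3 in input, 147 to 718 in IP). Input means on control and high-fat diet were 0.249 and 0.292 FPKM for Folr1 and 0.589 and 0.576 for Kcne2. Both choroid plexus markers thus passed the filter of 1 FPKM only through IP, and their calls carry no weight as support. Of the remaining lists, 3 of 6 oligodendrocyte precursor and 1 of 8 microglia markers were higher, and 0 of 2 endothelial and 0 of 3 ependymal and tanycyte markers passed. After quantile normalization, which gives all libraries 1 distribution of values, 4 pan-neuronal markers were higher and 5 lower (median log2 change 0.04, against 0.80 as deposited), while 12 mature oligodendrocyte and 9 astrocyte markers were lower and 0 higher. The part of these shifts in the results below was not tested, and in bulk tissue fewer cells of a type and less RNA per cell cannot be told apart. Both IP libraries of index 0 stood apart by the share of entries at 0, 10.9% on control diet and 9.57% on high-fat diet against 0.771% to 5.18% in the other IP libraries.

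The first comparison asked which of these GTPase transcripts were more abundant on precipitated ribosomes than in the whole tissue. Over both diets, 31 of the 64 genes tested (48.4%) were higher in IP, 4 (6.25%) were lower and 29 did not pass the threshold of an adjusted p of 0.05 (limma on log2(FPKM + 1), Benjamini-Hochberg over all 12478 genes). Among all genes tested 23.4% were higher and 20.5% lower. The median log2 change of the 64 genes was 0.44, against 0.00 for all genes. By family, 17 of 45 Rab genes rose and 4 fell (median 0.34), 4 of 5 Arf genes rose and 0 fell (median 1.34), and 10 of 14 Arl genes rose and 0 fell (median 0.77). Among the 4 Arf genes that rose, Arf5 passed the filter of 1 FPKM only through its IP libraries. The direction depended in part on how libraries were scaled to each other: 88.6% of the called GTPase genes were higher as deposited, 87.1% after median-ratio scaling and 57.6% (19 higher, 14 lower, median 0.05) after quantile normalization. Among all called genes these shares were 53.4%, 48.0% and 45.1%. After quantile normalization 22.7% of all genes tested were higher and 27.6% lower. In the Rab family the balance turned, with 9 genes higher and 13 lower (median -0.03), while 3 Arf genes were higher and 0 lower (median 0.49) and 7 Arl genes higher and 1 lower (median 0.56). Arf3, Arl1, Arl4a, Arl5a, Rab15, Rab1a, Rab21, Rab28, Rab6a and Rab9 then lost the call, and Rab2a, Rab6b and Rab7 were called lower instead of higher. Called lower under this scaling but not as deposited were Arl8b, Rab14, Rab22a, Rab2b, Rab31, Rab33b and Rab39b, and Rab38 was called higher. Without both IP libraries of index 0, 30 genes (46.9%) were higher and 6 (9.38%) lower, against 29.5% and 26.1% of all genes.

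The 2 diets gave similar counts. On control diet 21 genes (32.8%) were higher and 1 lower in IP, where 15.7% and 10.8% of all genes were, and on high-fat diet 23 (35.9%) were higher and 3 lower, where 19.0% and 14.6% of all genes were. The lower counts rested on few libraries: on control diet the count was 3 without IP of high-fat index 0, 3 without IP of control index 0 and 4 without IP of control index 1. On high-fat diet it was 1 without input of high-fat index 1, 2 or 3 or IP of high-fat index 3, 6 without IP of control index 0, and 5 without IP of control index 1 or 2. In 20 genes the same direction was called for both diets, each contrast coming from the 1 model of all 14 libraries. The share of all genes for which this held was not counted. Every IP library lay above every input library of the same diet, in both diets, for 19 of the 64 genes (29.7%, with Arf5 among them), against 14.6% of all genes tested. The reverse held for 2 genes, Rab3c and Rab8b, or 3.12%, against 10.2% of all genes.

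**Figure D1:**
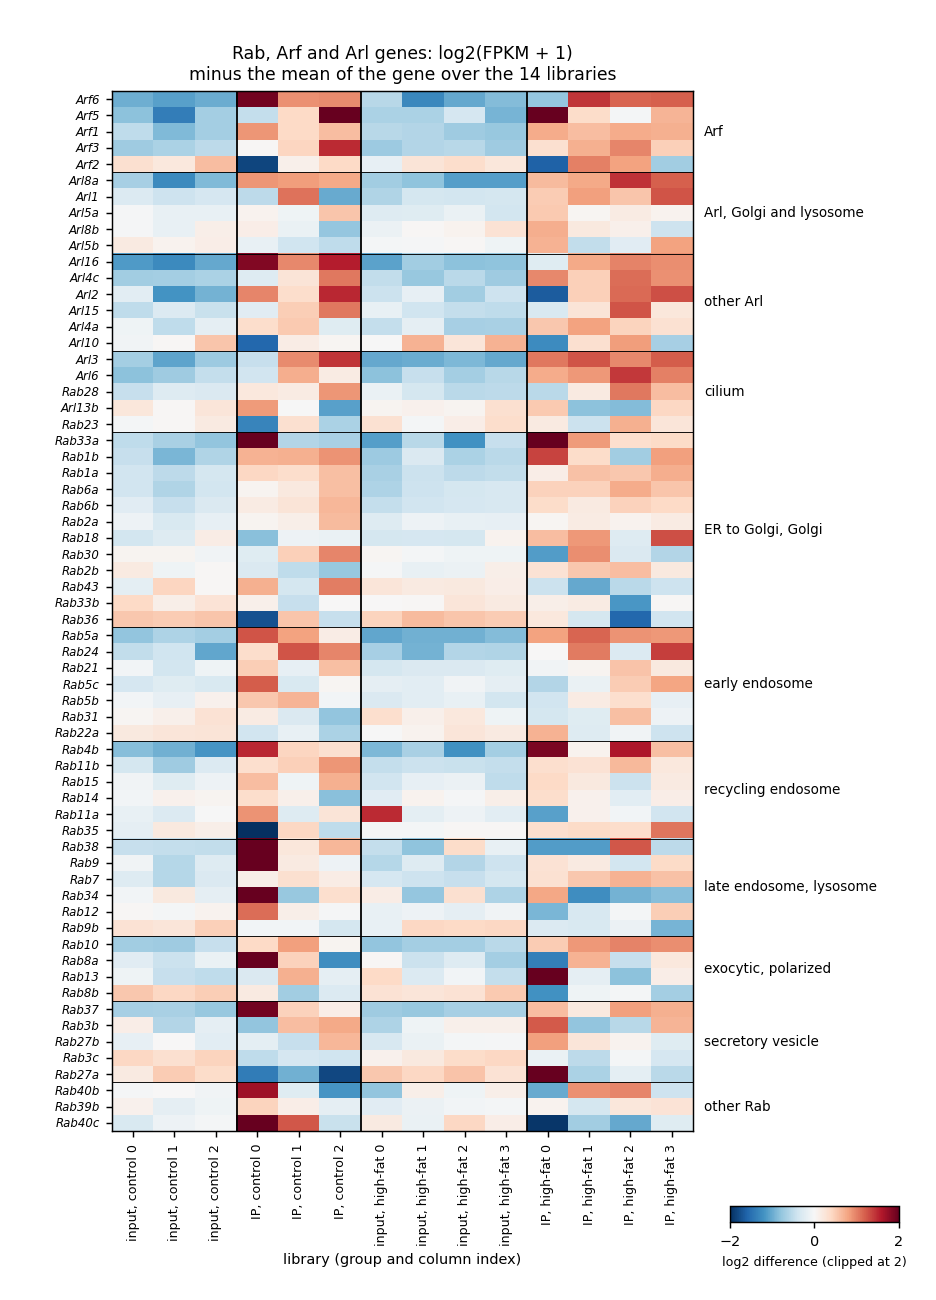
Each row is one of the 64 genes tested and each column 1 of the 14 libraries; colour gives log2(FPKM + 1) minus the mean of that gene over all libraries, in log2 units, and genes are grouped by the compartment they serve. Input columns resemble each other and, with values as deposited, more rows turn from blue in input to red in IP than the reverse, while Rab3c, Rab8b, Rab9b and Rab36 turn the other way.

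**Figure D2:**
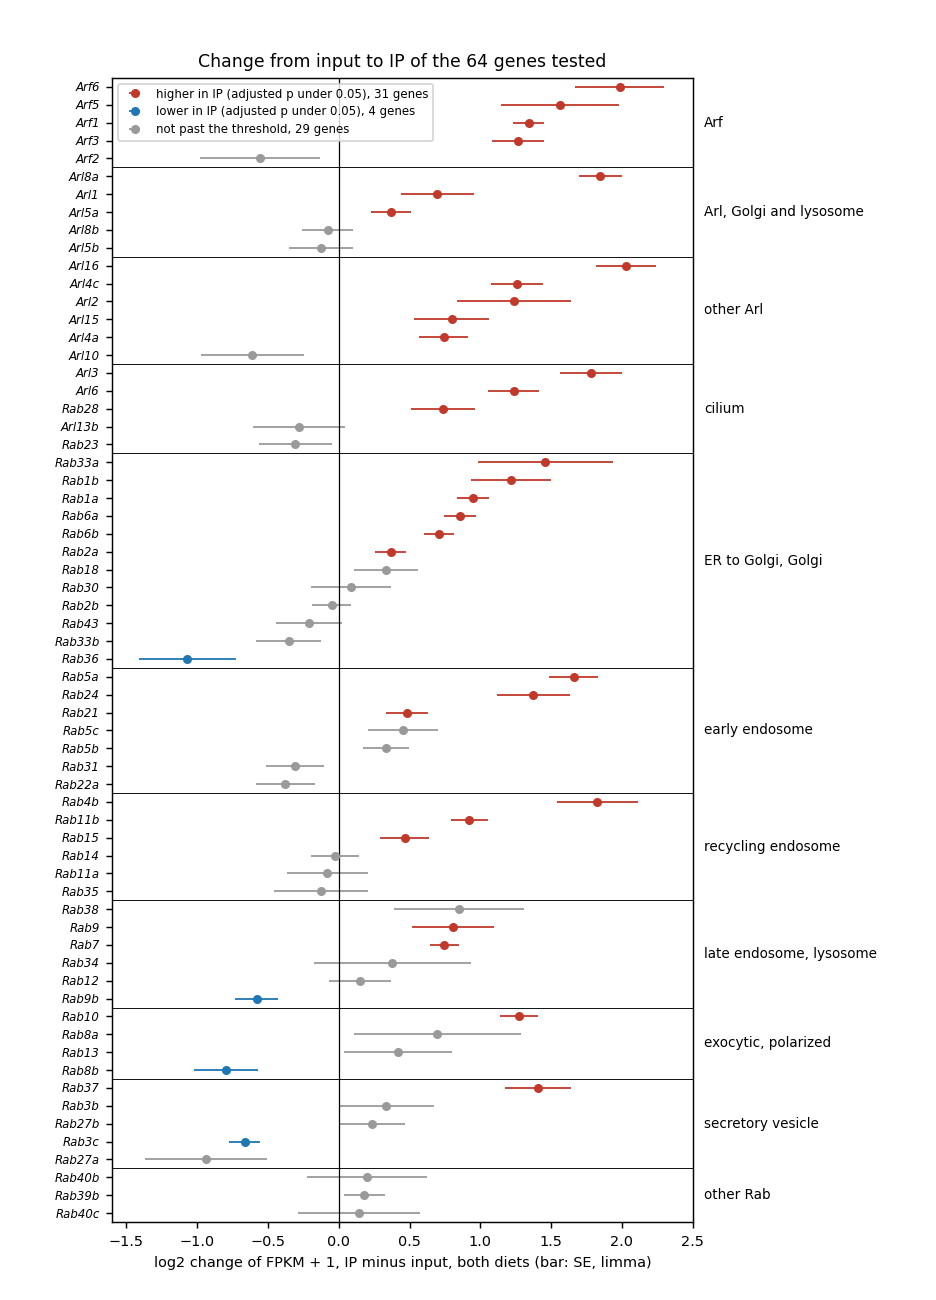
Points give the log2 change from input to IP over both diets for each gene tested, with the standard error from limma as a bar, grouped by compartment. The 31 genes that were higher run from 0.37 (Rab2a and Arl5a, both below 0 after quantile normalization) to 2.03 (Arl16), and the 4 lower ones from -0.58 (Rab9b) to -1.07 (Rab36).

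The Arf proteins recruit coats and lipid-modifying enzymes, Arf1 foremost the COPI coat of the Golgi. Arf1 had 73.2, 56.1 and 64.8 FPKM in the control-diet input libraries and 71.2, 69.3, 63.7 and 61.9 in the high-fat ones. In IP it had 194, 139 and 161 FPKM on control diet and 176, 161, 175 and 172 on high-fat diet. All 7 IP libraries lay above all 7 input libraries, and the log2 change was 1.34 ± 0.11 (limma adjusted p = 1.39e-07). Arf1 is encoded on chromosome 11, bases 59211412 to 59228270, minus strand (GRCm38).

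Arf3, a close relative of Arf1 at the trans-Golgi, rose: the 7 input libraries held 190.5 to 221 FPKM and the 7 IP libraries 322 to 891, with no overlap (log2 change 1.27 ± 0.19, limma adjusted p = 5.83e-05); after quantile normalization it no longer passed. Arf6, which acts at the plasma membrane and on endosomes, had 4.03 to 7.40 FPKM in input, 45.8, 22.3 and 22.7 in control-diet IP and 6.19, 32.2, 26.5 and 27.1 in high-fat IP. Here 6 of the 7 IP libraries stood above all inputs, and high-fat IP of index 0 lay within the input range (log2 change 1.98 ± 0.32, limma adjusted p = 0.000123). Arf5 was scarce, with 0 to 1.07 FPKM in input and 0.865 to 11.6 in IP, and its log2 change was 1.56 ± 0.42 (limma adjusted p = 0.00696). In input its means were 0.366 (control diet) and 0.703 FPKM (high-fat diet), so it passed the filter of 1 FPKM only through IP. Its p and its place among the higher genes therefore carry no weight as support. Its level was carried by control-diet IP of index 2 and high-fat IP of index 0, the others lying between 0.865 and 3.16 FPKM. Arf2 did not pass: it had 9.24, 8.49 and 11.6 FPKM in control-diet input and 6.35, 8.78, 9.52 and 8.56 in high-fat input. Its IP libraries, with 1.31, 7.82 and 9.81 FPKM on control diet and 1.68, 15.6, 13.4 and 4.09 on high-fat diet, spread to both sides of the input.

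The Arl proteins at the Golgi and the lysosome included a pair of close paralogs that did not move alike. Arl8a and Arl8b both sit on lysosomes and couple them to kinesin motors. Arl8a had 44.9, 29.2 and 38.5 FPKM in control-diet input and 44.1, 40.6, 32.98 and 32.9 in high-fat input. In IP it had 133, 129 and 122 FPKM on control diet and 112, 122, 198 and 165 on high-fat diet. Thus all IP libraries lay above all inputs, with a log2 change of 1.85 ± 0.15 (limma adjusted p = 1.44e-07; chromosome 1, bases 135146824 to 135156269, plus strand, GRCm38). Arl8b had 66.99, 60.8 and 73.3 FPKM in control-diet input and 62.4, 68.9, 70.9 and 83.2 in high-fat input. In its IP libraries it had 74.3, 61.8 and 39.1 FPKM on control diet and 113, 77.5, 72.5 and 50.5 on high-fat diet. Its groups overlapped throughout, and its log2 change of -0.08 ± 0.18 did not pass (limma adjusted p = 0.753), although after quantile normalization it was called lower at -0.81. Per length of transcript, Arl8b was the more abundant of the pair in 7 of 7 input libraries, and Arl8a in 6 of 7 IP libraries.

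Arl1, which recruits golgins to the trans-Golgi, had 19.4 to 24.5 FPKM in input and 14.3 to 73.04 in IP, and Arl5a, of the same membrane, had 24.1 to 30.7 and 29.3 to 46.3. Both passed narrowly (log2 changes 0.70 ± 0.26 and 0.37 ± 0.14, limma adjusted p = 0.0398 and 0.0430). Each lost the call when any one of 10 of the 14 libraries was left out, with the adjusted p reaching 0.0788 and 0.0910, and Arl5a turned to -0.14 after quantile normalization. Arl5b did not pass (-0.12 ± 0.23).

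Among the other Arl genes, 5 of 6 rose. Arl16 had the largest log2 change of the 64 genes with the values as deposited. Its levels were 6.76, 5.99 and 7.39 FPKM in control-diet input and 7.11, 9.48, 8.61 and 8.73 in high-fat input, against 60.1, 32.2 and 49.4 in control-diet IP and 13.4, 27.7, 32.8 and 31.2 in high-fat IP. No IP library reached down to an input library, and the log2 change was 2.03 ± 0.21 (limma adjusted p = 2.08e-06). Arl4c, which brings cytohesin exchange factors of the Arf cycle to the plasma membrane, had 18.6 to 22.5 FPKM in input and 26.9 to 70.7 in IP (log2 change 1.26 ± 0.18), without overlap. Its relative Arl4a had 9.38 to 14.6 FPKM in input and 12.98 to 27.9 in IP, with control-diet IP of index 2 inside the input range (0.74 ± 0.17). Arl2, a partner of the tubulin folding cofactors, and Arl15 also passed (1.23 ± 0.40 and 0.80 ± 0.26, limma adjusted p = 0.0215 and 0.0232). Arl2 lost the call without input of control index 1 or IP of control index 2 (adjusted p up to 0.0580), and Arl15 without input of control index 0 or 2 or IP of control index 2 (up to 0.0544). Arl10 did not pass (-0.61 ± 0.37).

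Of the 5 genes of the primary cilium, 3 rose: Arl3, Arl6 and Rab28. Arl3, which releases lipid-anchored cargo inside the cilium, had 44.4, 34.04 and 42.9 FPKM in control-diet input and 34.8, 35.5, 38.3 and 34.9 in high-fat input. Its IP libraries held 51.6, 139 and 195 FPKM on control diet and 150.4, 174, 141 and 168 on high-fat diet, all above every input (log2 change 1.78 ± 0.22, limma adjusted p = 1.18e-05; chromosome 19, bases 46531096 to 46573198, minus strand, GRCm38). Arl6, which recruits the BBSome, a coat for cargo of the cilium whose loss causes the obesity of Bardet-Biedl syndrome, had 12.6 to 16.4 FPKM in input, then 17.5, 38.6 and 25.8 in control-diet IP and 39.2, 42.7, 63.01 and 47.03 in high-fat IP. Again the IP libraries lay above all inputs (1.24 ± 0.18, limma adjusted p = 5.51e-05). Rab28 rose by 0.73 ± 0.23, with high-fat IP of index 0 lowest of all 14 libraries. Arl13b, the exchange factor of Arl3, had 1.73 to 2.34 FPKM in input and 0.259 to 3.87 in IP and did not pass (-0.28 ± 0.32), nor did Rab23, a regulator of hedgehog signalling (-0.31 ± 0.26).

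In the group of ER to Golgi and Golgi traffic, 6 of 12 genes rose and 1 fell, but after quantile normalization 2 were higher and 5 lower (median -0.34, against 0.35 as deposited). Rab1a, which tethers vesicles from the ER to the Golgi, had 84.9 to 104 FPKM in input and 146 to 221 in IP, without overlap (0.95 ± 0.11, limma adjusted p = 7.19e-06). After quantile normalization Rab1a stood at -0.03 and no longer passed (limma adjusted p = 0.835). Its scarcer paralog Rab1b had 2.16 to 3.88 FPKM in input and 2.68 to 14.2 in IP, with high-fat IP of index 2 inside the input range (1.22 ± 0.28). Rab6a and Rab6b, which drive vesicles from the Golgi, had 140.1 to 172 and 188 to 224 FPKM in input and 224 to 359.8 and 293 to 413 in IP, each without overlap. Their changes of 0.86 ± 0.11 and 0.71 ± 0.11 (limma adjusted p = 1.98e-05 and 6.65e-05) turned to -0.27 and -0.46 after quantile normalization, the latter called lower. Rab2a, of the ER-Golgi intermediate compartment, had 181 to 207 FPKM in input and 228 to 345 in IP, a log2 change of 0.37 ± 0.11 (limma adjusted p = 0.0121), and after quantile normalization it was called lower at -0.75.

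Rab33a, a Golgi GTPase found in neurons, showed how far single IP libraries could stand apart. It had 2.15 to 4.29 FPKM in input, 46.6, 3.81 and 3.60 in control-diet IP and 32.7, 12.1, 8.19 and 8.42 in high-fat IP, so both IP libraries of index 0 were far above the rest (1.46 ± 0.48, limma adjusted p = 0.0216). Rab36, which positions late endosomes and lysosomes near the Golgi, fell: it had 7.57, 7.41 and 7.73 FPKM in control-diet input and 7.10, 8.14, 7.73 and 7.44 in high-fat input. In IP it had 0.770, 7.74 and 3.31 FPKM on control diet and 5.86, 3.64, 1.00 and 3.54 on high-fat diet, below all inputs except for control-diet IP of index 1, which was among the input values (-1.07 ± 0.34, limma adjusted p = 0.0193). Rab36 was called lower in all 23 alternative settings. Rab18, Rab30, Rab2b, Rab43 and Rab33b did not pass, with log2 changes from -0.35 (Rab33b) to 0.33 (Rab18).

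Rab5 proteins control fusion and signalling at the early endosome, and their 3 genes did not move alike. Rab5a had 8.65, 9.82 and 9.40 FPKM in control-diet input and 7.15, 7.57, 7.59 and 8.13 in high-fat input. In IP it had 38.7, 28.1 and 17.4 FPKM on control diet and 28.1, 36.2, 29.98 and 29.3 on high-fat diet, above every input (log2 change 1.66 ± 0.17, limma adjusted p = 2.12e-06; chromosome 17, bases 53479234 to 53507680, plus strand, GRCm38). Rab5b had 17.4 to 24.3 FPKM in input and 17.3 to 37.1 in IP, and Rab5c 14.4 to 17.5 and 11.9 to 43.98. Both overlapped between fractions and did not pass (0.34 ± 0.16 and 0.45 ± 0.25, limma adjusted p = 0.110 and 0.156). Without IP of high-fat index 0 or IP of control index 2, Rab5b did pass, with an adjusted p down to 0.0218. An exon of Rab5a overlaps Pp2d1 on the other strand. Rab24, linked to autophagy, rose by 1.38 ± 0.26 on the log2 scale, with 8.57 to 13.96 FPKM in input and 15.4 to 50.2 in IP. Rab21, which carries integrins, rose by 0.48 ± 0.15, with 45.8 to 57.1 FPKM in input and 52.8 to 90.7 in IP. Rab21 turned to -0.24 after quantile normalization and no longer passed (limma adjusted p = 0.142). An exon of Rab24 overlaps Prelid1 on the other strand. Rab31 and Rab22a did not pass (-0.31 ± 0.20 and -0.38 ± 0.21), although Rab22a was called lower without IP of high-fat index 0 (adjusted p = 0.0230).

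Of the recycling endosome genes, 3 of 6 rose and 0 fell, against 2 higher and 1 lower after quantile normalization. Rab4b, of the fast recycling route, had 5.89 to 9.12 FPKM in input, 44.1, 20.4 and 18.7 in control-diet IP and 57.8, 15.7, 47.9 and 23.02 in high-fat IP. All IP libraries lay above the inputs, with an uneven spread among them (1.83 ± 0.28, limma adjusted p = 0.000101), and Rab4b shares exons with the gene model Gm21983 on the same strand. Rab11b, of the slow route, had 24.7 to 33.9 FPKM in input and 48.1 to 76.8 in IP, without overlap (0.92 ± 0.13, limma adjusted p = 4.79e-05). Its paralog Rab11a had 24.8, 22.8 and 27.5 FPKM in control-diet input and 80.1, 23.98, 25.8 and 23.8 in high-fat input. In IP it had 52.3, 23.04 and 33.2 FPKM on control diet and 12.6, 29.6, 26.6 and 20.96 on high-fat diet. One input library, high-fat index 0, was far above the others, and the remaining inputs lay inside the IP range (-0.08 ± 0.29, limma adjusted p = 0.843). Rab15 passed narrowly (0.47 ± 0.18, limma adjusted p = 0.0431) and lost the call without any one of 12 libraries, with an adjusted p up to 0.0971. Rab14 and Rab35 did not pass (-0.03 ± 0.17 and -0.13 ± 0.33).

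Late endosome and lysosome genes went both ways, with 2 of 6 higher and 1 lower. After quantile normalization 1 was higher, Rab38, and 2 were lower, Rab7 and Rab9b, while Rab9 no longer passed. Rab7, which drives the fusion of late endosomes with lysosomes, had 193 to 241 FPKM in input, then 312, 361 and 319 in control-diet IP and 355, 419.6, 466 and 432 in high-fat IP. All IP libraries lay above the inputs (0.75 ± 0.10, limma adjusted p = 2.59e-05), but after quantile normalization Rab7 was called lower at -0.43. Rab9, which returns receptors from late endosomes to the Golgi, had 10.5 to 15.5 FPKM in input and 12.4 to 74.8 in IP (0.81 ± 0.29, limma adjusted p = 0.0347), and it lost the call without any one of 8 libraries (adjusted p up to 0.0850). Its paralog Rab9b, also on chromosome X, fell. It had 63.8, 61.4 and 73.1 FPKM in control-diet input and 46.95, 69.2, 68.7 and 69.3 in high-fat input, then 50.2, 50.3 and 40.4 FPKM in control-diet IP and 42.97, 41.7, 48.1 and 26.7 in high-fat IP. High-fat input of index 0 was the only input inside the IP range (-0.58 ± 0.15, limma adjusted p = 0.00612). Rab38, Rab34 and Rab12 did not pass (0.85 ± 0.46, 0.38 ± 0.55 and 0.15 ± 0.22), and in all 3 genes control-diet IP of index 0 held the highest value.

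Of the 9 genes of exocytosis and secretory vesicles, 2 rose and 2 fell. Rab10, which carries membrane to the cell surface, had 44.5 to 56.02 FPKM in input, then 102, 138 and 81.1 in control-diet IP and 111, 142, 155 and 149 in high-fat IP. No IP library overlapped the inputs (1.27 ± 0.13, limma adjusted p = 2.12e-06). Rab37, of secretory granules, had 12.04 to 13.2 FPKM in input and 23.1 to 82.9 in IP, again without overlap (1.41 ± 0.23, limma adjusted p = 0.000174), and control-diet IP of index 0 was far above the rest.

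Rab3c, a regulator of the release of synaptic and secretory vesicles, went the other way. It had 278, 259 and 284 FPKM in control-diet input and 219.7, 239, 269 and 278 in high-fat input. In IP it had 146, 165 and 156 FPKM on control diet and 190.3, 145, 201 and 165 on high-fat diet, below every input of either diet (log2 change -0.67 ± 0.11, limma adjusted p = 0.000127; chromosome 13, bases 110054187 to 110280996, minus strand, GRCm38). With the change corrected for transcript length it was -0.07 and did not pass. Its paralog Rab3b had 8.57 to 15.1 FPKM in input and 7.44 to 33.2 in IP and did not pass (0.34 ± 0.34). Rab8b, which serves polarized delivery to the surface, had 13.1, 11.9 and 12.7 FPKM in control-diet input and 10.8, 10.4, 10.9 and 12.9 in high-fat input. Its IP libraries held 9.93, 4.95 and 6.97 FPKM on control diet and 3.18, 8.15, 8.42 and 5.06 on high-fat diet. All its IP libraries lay below all inputs (-0.80 ± 0.22, limma adjusted p = 0.00953), and corrected for length its change was -0.49 and did not pass.

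Rab8a had 2.12 to 4.07 FPKM in input, then 71.05, 5.84 and 1.09 in control-diet IP and 0.921, 7.09, 2.62 and 4.76 in high-fat IP, where control-diet IP of index 0 stood alone (0.70 ± 0.59, limma adjusted p = 0.365). Its change ran from -0.01 to 1.26 with 1 library left out, and it was called higher without IP of control index 2 (limma adjusted p = 0.0480). Rab27a, which docks granules, had 4.04 to 5.57 FPKM in input, 0.673, 1.28 and 0.260 in control-diet IP and 26.9, 1.86, 2.89 and 2.05 in high-fat IP. All IP libraries but high-fat index 0 lay below the inputs. Over all libraries Rab27a did not pass (-0.94 ± 0.43), and without that library it was called lower (log2 change -1.33, limma adjusted p = 0.000156). Rab13 and Rab27b did not pass (0.42 ± 0.38 and 0.24 ± 0.23), and neither did Rab40b, Rab39b and Rab40c of the remaining Rab genes (0.20, 0.18 and 0.15), although Rab39b was called lower at -0.35 after quantile normalization.

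Because paralogs share a library, the log2 ratio of their FPKM + 1 within a library was compared between IP and input for 18 pairs, a comparison added after the values had been seen. A scaling factor common to all genes of a library cancels in this ratio, apart from the added 1. Quantile normalization is not such a factor, and the pairs were not tested under it. After it Rab3b stood at 0.05 and Rab3c at -1.76, against 0.34 and -0.67 as deposited. An exact two-sided permutation of the fraction labels within each diet allowed 1400 assignments and a smallest p of 0.00143, and 11 of 18 pairs had a Benjamini-Hochberg adjusted p under 0.05 over the 18. The ratio of Arl8a to Arl8b was -0.88 ± 0.29 in input and 1.04 ± 0.61 in IP (SD, n = 7 each), a difference of 1.93 with the smallest exact p of 0.00143 (adjusted 0.00514). The ratio of Rab5a to Rab5b moved by 1.32 and that of Rab5a to Rab5c by 1.20, both with the same exact p, whereas Rab5b against Rab5c moved by -0.12 (exact p = 0.694).

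Rab11a against Rab11b moved by -1.0 (exact p = 0.00857, adjusted 0.0171). Rab6a against Rab6b moved by 0.15 only, past the threshold (exact p = 0.00429, adjusted 0.0110). Rab8a against Rab8b (1.49, exact p = 0.0286, adjusted 0.0468) and Rab3b against Rab3c (1.0, exact p = 0.0214, adjusted 0.0386) passed, but lost the call in 11 and 9 of 17 alternative settings. Leaving out 1 library ended the call of the Rab8 pair for any control-diet input, input of high-fat index 1, 2 or 3, IP of control index 0 (0.89) and IP of high-fat index 1 or 3, and that of the Rab3 pair for any input and IP of high-fat index 3 (0.90), with adjusted exact p up to 0.146 and 0.0746. In the Arf family the ratio of Arf1 to Arf2 moved by 1.90 (exact p = 0.00286, adjusted 0.00857), and the ratios of Arf2 to Arf3, Arf5 and Arf6 moved by -1.82, -2.12 and -2.54 (adjusted exact p = 0.00514, 0.0171 and 0.00514). Since Arf5 passed the filter only through IP, its pair with Arf2, counted among the 11, carries no weight as support. Arf1 against Arf3 moved by 0.08 (exact p = 0.779), and none of the other 5 pairs among Arf1, Arf3, Arf5 and Arf6 passed, although without IP of high-fat index 0 Arf1 against Arf6 (-0.90, adjusted exact p = 0.00429) and Arf3 against Arf6 (-0.92, 0.0304) did, the latter also without IP of control index 2 (-1.01, 0.0429).

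**Figure D3:**
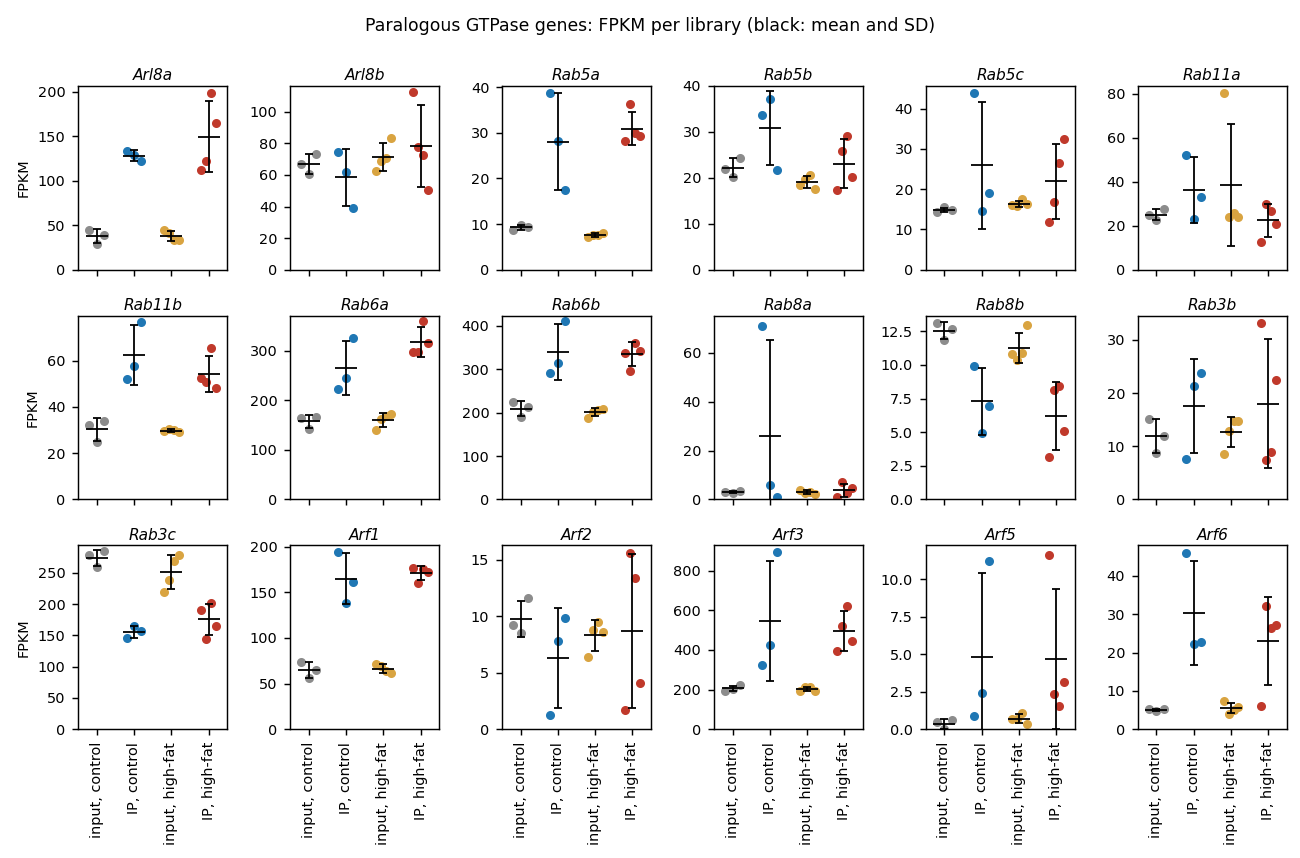
Points are FPKM in single libraries of the 4 groups, with the mean and SD of each group in black; each panel has its own linear axis from 0, where SD bars are cut. Arl8a and Rab5a stand above input in every IP library while Arl8b, Rab5b and Rab5c overlap input, and 1 library alone carries the Rab8a mean in control-diet IP.

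Transcript length went along with the change. Across the 64 genes the Spearman correlation between the log2 change and the length of the longest protein-coding transcript in GENCODE was -0.50, and it was -0.42 across the 12468 genes tested with a length; genes of one library are not independent. Against the length of the 3' untranslated region it was -0.50 for the GTPase genes and -0.27 for all genes. The GTPase genes had short coding sequences, with a median of 625.5 bases against 1389 for all genes with one, while their median transcript length was 2994 bases against 3135.

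In each of 3 length classes a larger share of the GTPase genes than of all genes was higher, given here as a description. Among transcripts of up to 2000 bases, 14 of 20 GTPase genes rose (70%), with a median change of 1.24, against 43.4% of all genes and a median of 0.62. Between 2000 and 3500 bases 9 of 23 rose and 1 fell (39.1% higher, median 0.18), against 21.6% and a median of 0.04. Above 3500 bases 8 of 21 rose and 3 fell (38.1% higher, median 0.24), against 12.2% and a median of -0.34. With the change corrected for length within each library, 26 GTPase genes (40.6%) were higher and 2 (3.12%) lower, against 21.8% and 15.4% of all genes. Of the reported calls, 24 of the 31 higher and 1 of the 4 lower ones were kept. Arf5, Arl1, Arl2, Rab28, Rab2a, Rab33a and Rab9 then lost the call, as did Rab3c, Rab8b and Rab9b on the lower side, while Arl10 was called lower and Rab18 and Rab27b higher.

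**Figure D4:**
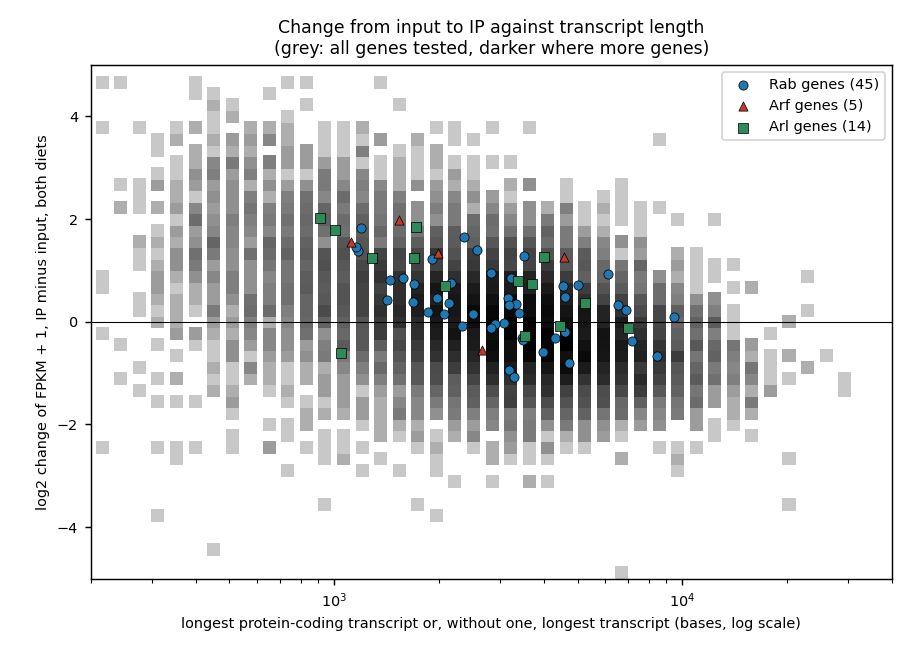
The log2 change from input to IP over both diets is plotted against transcript length on a log scale, with Rab, Arf and Arl genes as coloured symbols over the density of all genes tested in grey. Short transcripts reach the highest changes, and the long Rab3c and Rab8b lie below 0.

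The regulators and effectors of these GTPases were counted for the same comparison, against 23.4% higher and 20.5% lower among all genes. For all genes these shares were 22.7% and 27.6% after quantile normalization, and 21.8% and 15.4% when corrected for length. Of 38 tested Rab GEF genes 5 rose and 9 fell (median log2 change -0.12), with 4 higher and 11 lower after quantile normalization and 4 and 4 when corrected for length. The risers included the TRAPP subunits Trappc1 (2.08), Trappc4 (2.26) and Trappc3 (0.88), parts of the exchange factor for Rab1, and Rin2 (-1.71), Gapvd1 (-1.41) and Ric1 (-1.70), exchange factors for Rab5 and Rab6, fell. Of 32 Rab GAP genes 1 rose, Tbc1d9 (0.76), and 9 fell, with Tbc1d15 (-2.21), Rab3gap2 (-1.40) and Evi5 (-0.98) at the smallest p. After quantile normalization 2 Rab GAP genes were higher and 14 lower, and corrected for length 2 were higher and 3 lower. Of 45 Rab effector genes 2 rose, Rufy3 (1.07) and Rph3a (0.69), a binder of Rab3 on vesicles, and 18 fell (median -0.59), among them the dynein adaptor Bicd1 (-1.48), Rufy2 (-1.46) and the Rab5 effector Appl1 (-1.21). After quantile normalization 0 of the 45 rose, with Rufy3 at 0.11 and Rph3a at -0.10, and 23 fell. Corrected for length, 6 rose and 9 fell.

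The enzymes of the Rab membrane cycle were few: of 7 tested genes 3 rose and 1 fell, with 3 higher and 4 lower after quantile normalization and 2 and 0 when corrected for length. Rabggtb, a subunit of the geranylgeranyl transferase that adds the lipid anchor, rose by 1.14 and the prenylated Rab acceptor Rabac1 by 1.68. Yipf5 fell by 0.68. In the Arf cycle, 4 of 14 GEF genes rose and 2 fell, against 2 and 5 after quantile normalization and 7 and 2 when corrected for length: Iqsec2 (1.98), Iqsec1 (0.96) and Psd (1.01), exchange factors of Arf6 at synapses, rose, with Iqsec1 at -0.01 after quantile normalization, while Arfgef3 (-1.48) and Psd2 (-1.12) fell. Of 19 Arf GAP genes 5 rose, with Agap3 (1.67), Smap2 (1.71) and Agap2 (1.52) first, and 4 fell, with Arap2 (-1.11), Acap2 (-1.25) and Asap2 (-0.75) first. The Arf GAP counts were 6 higher and 5 lower after quantile normalization, and 7 and 4 when corrected for length.

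Of 35 effectors and partners of Arf and Arl proteins 11 rose and 5 fell, with 9 higher and 8 lower after quantile normalization and 8 and 4 when corrected for length. Borcs8 (1.85), a subunit of the BORC complex that places Arl8 on lysosomes, Scoc (1.52), which binds Arl1, and Arl6ip1 (1.29) rose with the smallest p, but Scoc stood at 0.37 after quantile normalization and no longer passed (limma adjusted p = 0.0913). Golga4 (-1.65), a golgin bound by Arl1, the Arf effector Gga2 (-1.81) and Rp2 (-0.80), the GAP of Arl3, fell. Of 8 genes of the COPI coat 2 rose, Cope (0.96) and Copz1 (0.75), and 3 fell, Copb1 (-0.78), Arcn1 (-0.62) and Copg2 (-0.75). After quantile normalization 1 was higher and 5 were lower, Copz1 (0.43) no longer passing with a limma adjusted p of 0.0565, and corrected for length 2 were higher and 1 lower.

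The second comparison asked whether 3 days of high-fat diet moved these genes. None of the 64 passed in IP, in input or in the difference of the IP enrichment between diets (limma, 7, 7 and 14 libraries); among all genes 0, 0 and 1 of 12478 (0.00801%) did. At an unadjusted p under 0.05 there were 4 of 64 GTPase genes in IP, 2 of 64 in input and 6 of 64 for the difference of enrichment. Among all genes there were 713, 714 and 844 of 12478. The median log2 change of the 64 was 0.02 in IP and -0.04 in input. Libraries of the 2 diets did not overlap for 4 of 64 genes in IP (6.25%, against 6.34% of all genes) and for 4 in input (6.25%, against 6.80%). These shares lay near the background. Without IP of control index 1, Arl1 passed for the difference of enrichment (log2 difference 1.64, limma adjusted p = 0.0292). A p that misses the threshold does not show that the diets acted alike, and in IP the spread was wide.

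The gene with the smallest unadjusted p in IP was Rab2b, a Golgi GTPase and paralog of Rab2a. It had 19.8, 16.8 and 13.97 FPKM in control-diet IP and 30.01, 35.8, 37.9 and 28.2 in high-fat IP. In input it had 27.8, 22.9 and 24.7 FPKM on control diet and 23.9, 21.9, 22.5 and 26.4 on high-fat diet. The high-fat IP libraries all lay above the control ones, and the input groups overlapped. The log2 difference was 0.93 ± 0.33 in IP (limma unadjusted p = 0.0154, adjusted 0.813), -0.08 ± 0.10 in input, and 1.01 ± 0.27 for the difference of enrichment (limma unadjusted p = 0.00214, adjusted 0.490). In the authors' deposited table Rab2b had an unadjusted p of 0.0114 for the ratio of IP to input between diets, with ratios of 0.713, 0.735 and 0.565 on control diet and 1.26, 1.64, 1.69 and 1.07 on high-fat diet. An exon of Rab2b overlaps Tox4 on the other strand.

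Arl6 had 17.5, 38.6 and 25.8 FPKM in control-diet IP and 39.2, 42.7, 63.01 and 47.03 in high-fat IP, all high-fat libraries above all control ones (log2 difference 0.84 ± 0.35, limma unadjusted p = 0.0344), with 0.04 ± 0.12 in input. Rab18, which acts on the ER and on lipid droplets, had 9.69, 16.8 and 16.5 FPKM in control-diet IP and 28.3, 33.97, 14.97 and 45.95 in high-fat IP, where high-fat index 2 lay among the control values (0.99 ± 0.43, limma unadjusted p = 0.0420). Arl16 differed by -0.85 ± 0.39 in IP and by 0.30 ± 0.12 in input (limma unadjusted p = 0.0520 and 0.0394), with overlapping IP libraries. The difference of its enrichment was -1.15 ± 0.43 (limma unadjusted p = 0.0167).

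Rab40c, a Rab that joins a ubiquitin ligase, had 29.9, 8.13 and 1.82 FPKM in control-diet IP and 0, 1.37, 0.889 and 2.25 in high-fat IP. Its log2 difference of -2.25 ± 0.80 rested on control-diet IP of index 0 and 1, and its groups overlapped. Rab27a differed by 1.72 ± 0.80, with all 4 high-fat IP libraries above the 3 control ones and index 0 far above the rest, and Rab43 by -1.06 ± 0.52 (13.5, 5.95 and 17.1 FPKM on control diet, 5.62, 3.38, 5.12 and 5.64 on high-fat diet), without overlap. In input Rab5a had 8.65, 9.82 and 9.40 FPKM on control diet and 7.15, 7.57, 7.59 and 8.13 on high-fat diet, without overlap and with a log2 difference of -0.26 ± 0.10 (limma unadjusted p = 0.0281). Rab5b, Rab12, Rab40c and Arl5a, next in order of p in input, differed by -0.21 ± 0.09, -0.15 ± 0.07, 0.29 ± 0.16 and -0.14 ± 0.08. None of these differences passed after adjustment, with adjusted p from 0.490 upwards for all 64 genes.

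Only Rab2b, Rab18 and Arl16, 3 of the 66 genes, had in the authors' deposited table an unadjusted p under 0.05, as did 2.88% of all 14531 entries. The deposited p was 0.0329 for Rab18 and 0.0455 for Arl16.

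**Figure D5:**
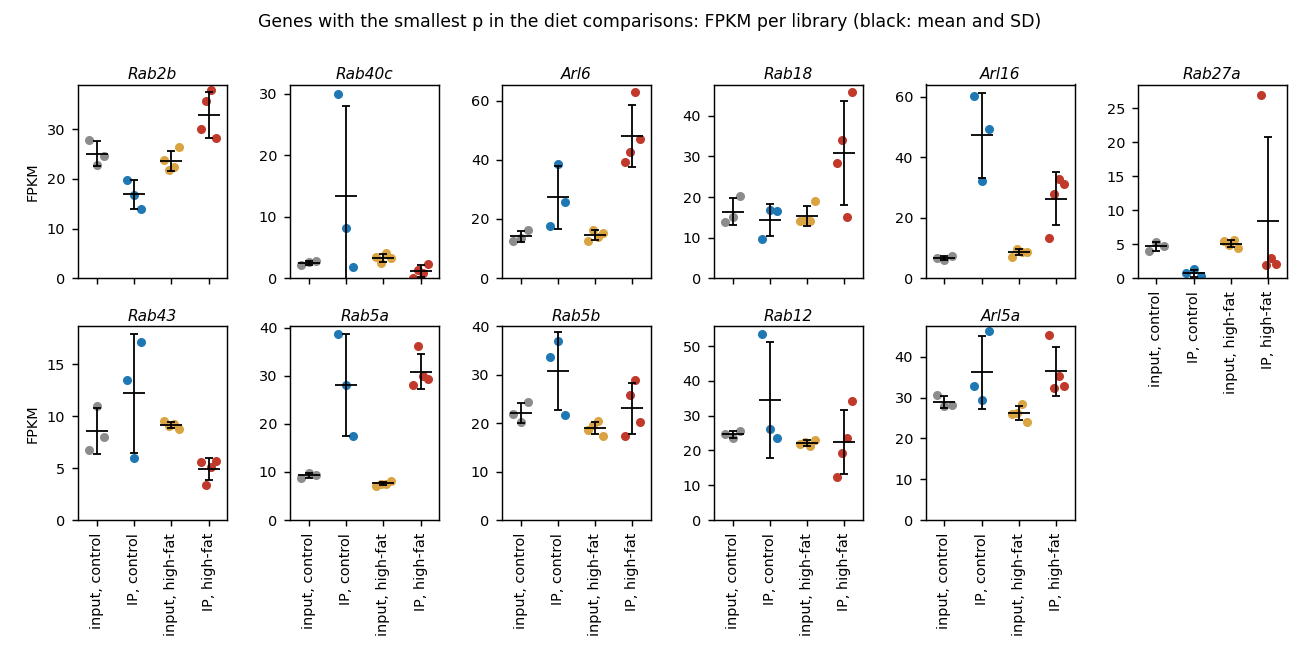
Points are FPKM in single libraries for the 11 genes with the smallest p in the diet comparisons, with the mean and SD of each group in black and a linear axis from 0, where SD bars are cut. Rab2b and Arl6 show high-fat IP libraries above the control IP ones. The libraries of index 0 and 1 carry the mean of Rab40c in control-diet IP, and that of index 0 carries the mean of Rab27a in high-fat IP.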

How the data were processed

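Expression was measured in 14 libraries of hypothalamic pools. The deposited values are FPKM, called normalized by the authors; how libraries were scaled to each other is not given in the sources used here, and depth is unknown. Per the labels' protocols, RNA was amplified with poly(T) and random primers before a Nextera XT library. Cuffdiff, Cufflinks 2.2.1, HISAT2 2.1.0 and StringTie 1.3.4d are the tools named in the submitters' processing notes, with GRCm38.p6 as the build. The authors' table also holds IP over input ratios, each of which was the quotient of the columns of the same diet and index in 96371 of 96371 entries compared (tolerance 0.001), and a p-value not adjusted for multiple tests.

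Since column indices are not the labels' replicate numbers, a column is known by its group only. Genes with a mean of at least 1 FPKM were tested on log2(FPKM + 1), which understates changes of scarce genes, with limma 3.58.1 in R 4.3.3 (trended variance, two-sided, Benjamini-Hochberg over 12478 genes, threshold 0.05); ± after a log2 change is the standard error. IP was compared with input in 1 model of 4 groups, and diets within the 7 libraries of a fraction. That model gives each gene 1 estimate of spread for all 4 groups, although IP libraries varied more than input libraries. The standard errors and p-values of IP against input, also those of a single diet, therefore assume equal spread. The procedure was also run on simulated data with independent noise in each library. That run cannot show how the p-values hold where fractions share a lysate. The same 14 libraries serve all comparisons of IP with input, and both fractions came from shared lysates; the labels do not say which columns share one. Nothing states that pools of a group came from separate experiments, so p-values measure spread between these pools.

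Named genes were the 12 members per direction with the largest change among those called without overlap in either diet, the 5 most abundant, the paralog families and the 6 with the smallest p in each diet comparison, and up to 3 genes per direction of each regulator list; others are named beside their counts. Within the families the members were taken by name, but the families, lists, roles and tests were chosen with earlier results of these data known. Lengths, positions and exon overlaps come from GENCODE M21 (GRCm38). One called gene of the lists is not reported here by name.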

Additional observations from a re-analysis of the deposited data

Results flagged for a closer look

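In the groups of 4 high-fat libraries, 13 of 132 combinations of gene and fraction held 1 library far from the other 3 by Dixon's criterion, which has a nominal rate of about 1 in 20 groups. The share flagged over all genes in these libraries was not counted, so the number cannot be read as a trait of these genes. In IP of index 0 the library was high for Arf5 (11.62 FPKM, others 1.53 to 3.16), Rab13 (26.1, others 2.64 to 6.08), Rab27a (26.93, others 1.86 to 2.89), Rab33a (32.73, others 8.19 to 12.1) and Rab34 (4.682, others 0.395 to 0.833). In IP of index 2 Rab33b was low (3.349 FPKM, others 8.99 to 9.92) and Rab38 high (4.097, others 0 to 0.504), and in IP of index 3 Rab35 was high (8.801, others 4.92 to 5.08). In input of index 0 Rab11a was high (80.1 FPKM, others 23.8 to 25.8), while Arl1 (19.36, others 22.9 to 23.3) and Rab9b (46.95, others 68.7 to 69.3) were low. In input of index 3 Arl13b (2.337 FPKM, others 1.78 to 1.84) and Rab18 (19.13, others 13.98 to 14.2) were high. High-fat IP of index 0 also held 9.57% of all entries at 0, and the part of this in the high values was not tested.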

How the results depend on the processing

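Over both diets, 14 GTPase genes were higher in IP in the reported comparison and in all 23 alternatives (Arf1, Arf6, Arl16, Arl3, Arl4c, Arl6, Arl8a, Rab10, Rab11b, Rab1b, Rab24, Rab37, Rab4b and Rab5a), and Rab36 was lower in all. How many of all genes kept their call in every setting was not counted, so these numbers cannot be read as a trait of the GTPase genes. Quantile normalization gave 19 higher and 14 lower genes, and length correction 2 lower. Leaving out 1 library gave 26 to 30 higher and 4 to 6 lower. On control diet the higher count was 12 both with quantile normalization and with that diet fitted alone. The lower count there was 2 with a pseudocount of 0.1, with no filter, with a mean of at least 5 FPKM, with median-ratio scaling and with the diet alone; it was 10 with quantile normalization, 3 with array weights, 5 without the IP libraries of index 0 and 0 with length correction, and 1 to 4 with 1 library left out. On high-fat diet the lower count was 9 with quantile normalization, 6 with array weights, without the IP libraries of index 0 and with the diet alone, 1 with length correction, and 1 to 6 with 1 library left out. Without IP of control index 1, 1 gene (0 to 1 with any library left out) passed as higher for the difference of enrichment between diets. Quantile normalization turned Rab7 to -0.43 (both diets), -0.64 (control) and -0.21 (high-fat), Rab6b to -0.46, -0.51 and -0.40, Rab6a to -0.27, -0.41 and -0.13, Rab2a to -0.75, -0.70 and -0.80, Arl5a to -0.14, Rab21 to -0.24 and Rab1a to -0.03 over both diets, and Arl8b to -0.64 on high-fat diet; length correction turned Rab3c to 0.13 on high-fat diet. The causes were not tested.

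The deviations of same-index IP and input libraries correlated with r from -0.0038 to 0.058 over 7 pairs. In 5 of these the input library correlated best with the IP library of its own index, a hint of pairing from the data and not from the labels; with every r under 0.1, the reported comparison was left unpaired. With the index as a replicate block, 29 genes were higher and 4 lower over both diets, and Arl5a and Rab15 lost the call. Depth is unknown, so no limit from counting can be given. A filter of 1 FPKM and an added 1 make changes of scarce genes such as Arf5 or Rab38 uncertain. A mean FPKM of at least 5 moved the median of all genes to 0.16, and a pseudocount of 0.1 to -0.10.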
